A study of Homo sapiens with 4 samples.

Results

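Protein kinases add phosphate groups to proteins and protein phosphatases remove them, and both kinds of enzyme were examined by gene family in RCC4 cells, a human clear cell renal carcinoma line, after depletion of the transcript MIRE. Members were taken by symbol: 25 gene symbol prefixes of kinase and phosphatase families were searched among the genes of the deposited tables, 13 prefixes had a match, and 30 of 1176 listed genes were members. Of these, 22 carried a kinase prefix and 8 a phosphatase prefix. The kinase side held 17 genes of kinase families, among them the pseudokinase CAMKV, 4 regulatory or scaffold subunits and CDKN2A, whose symbol begins with CDK but whose product p16 inhibits CDK4 and CDK6. The phosphatase side held 3 catalytic phosphatases and 5 subunits or inhibitors.

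The groups were RCC4 cells infected with a control hairpin lentivirus (shControl, genotype WT, n = 2) and RCC4 cells infected with a hairpin lentivirus against MIRE (shMIRE, genotype MIRE knockdown, n = 2), all on day 3. Both groups share the cell line, which lacks functional VHL, and 1 hairpin per target is named, so a response to MIRE loss and any other effect of that hairpin cannot be told apart. The tables list genes that differ at least about 2-fold between the groups, with values that look already scaled and rounded. Per library the listed genes add up to 2002994 to 2514039, the depth beyond these genes is unknown, and MIRE is not among the genes analysed here. Of the 10 renal epithelial markers checked, the only listed one was LRP2 (6 and 18 in shControl, 0 and 0 in shMIRE), so the listed genes cannot check the cell type. Of 8 leukocyte markers the listed one, ITGAM, stood at 73 and 53 in the shControl pair and at 155 and 146 in the shMIRE pair, and its part in the results was not tested. Of 5 endothelial and 6 fibroblast markers, 0 were listed. In bulk RNA, fewer cells of a type and less RNA per cell cannot be told apart.

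Mitogen-activated protein kinases (MAPKs) act in cascades, in which a MAP3K activates a MAP2K, which activates a MAPK, and MAPKs in turn activate kinases such as those of the RSK and MSK families. Cyclin-dependent kinases (CDKs) need a cyclin partner and drive the cell cycle, with CDK4 and CDK6 acting in G1. The phosphatases PP1 and PP2A are catalytic subunits that gain their targets from a large set of regulatory subunits, and dual-specificity phosphatases (DUSPs) include the enzymes that switch MAPKs off. In VHL-deficient renal carcinoma, cyclin D1 is a known target of hypoxia-inducible factors and a partner of CDK6.

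Kinases and phosphatases moved both ways in shMIRE. The G1 kinase gene CDK6 more than doubled, the MSK1 gene RPS6KA5 and the phosphoinositide 3-kinase subunit gene PIK3R3 were higher, and the phosphatase gene PTP4A2, the PP2A subunit gene PPP2R5D and the RSK3 gene RPS6KA2 fell about 3-fold. With limma at an adjusted p under 0.05, 11 of 30 members rose and 19 fell. Among all 1176 listed genes, 97.5% passed, 38.5% upward and 59.0% downward, so neither the number of members that passed nor their direction stands apart from the tables. The groups did not overlap for 30 of 30 members and for 99.0% of all listed genes. Of the 22 kinase members 9 rose and 13 fell, with a median log2 fold change of -1.06, and of the 8 phosphatase members 2 rose and 6 fell, with a median of -1.34. The median over all listed genes was -1.16. The share lower in shMIRE was 59.1% on the kinase side, 75.0% on the phosphatase side and 60.6% over all listed genes. With 8 phosphatase members, that gap is a description of the tables and was not tested.

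**Figure D1:**
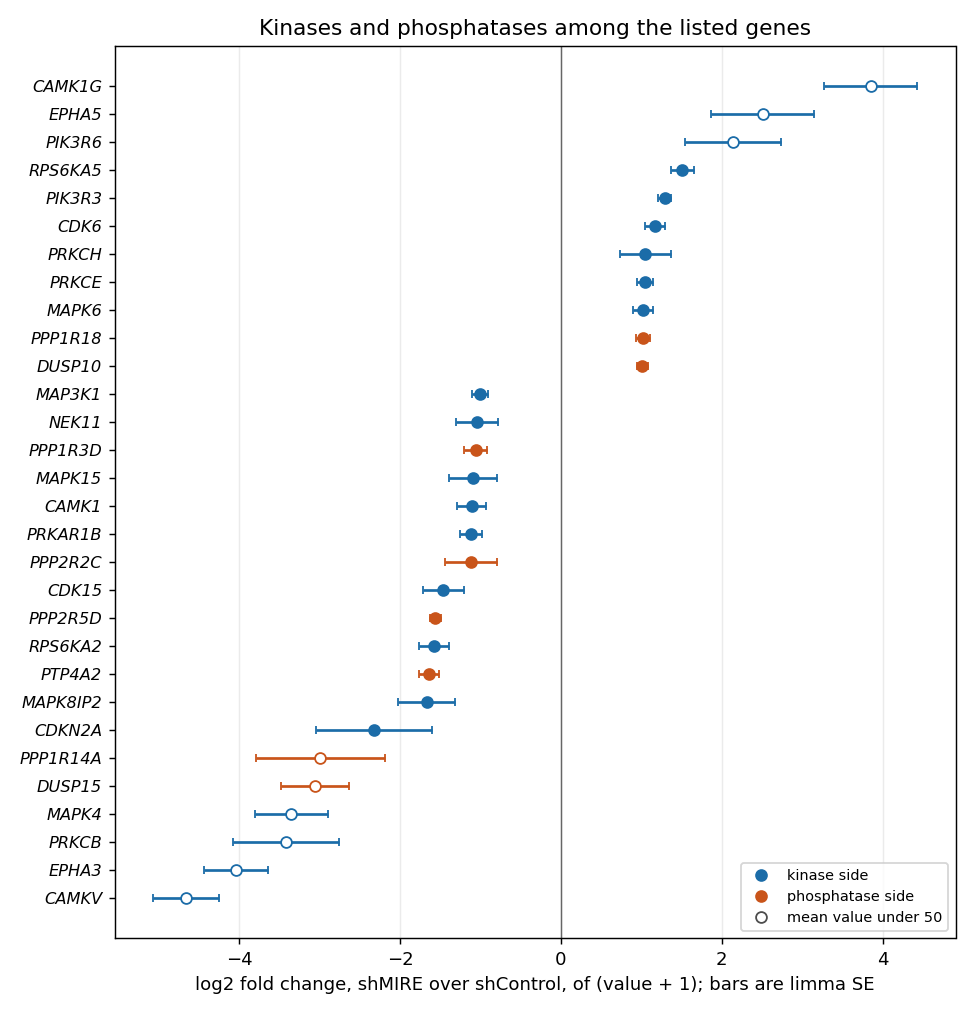
Log2 fold change of (value + 1), shMIRE over shControl, for each of the 30 members, with limma's standard error as bars and n = 2 libraries per group. Kinase-side members (blue) and phosphatase-side members (orange) lie on both sides of 0, and the farthest points in each direction, CAMKV at -4.66 and CAMK1G at 3.85, are among the 9 members with a mean value under 50 (open points).

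Many members sat close to the 2-fold edge at which the tables end. Of the 30 members, 6 had a group at 0. Of the 24 members above 0 in both groups, 14 (58.3%) had a ratio of group means under 2.5, against 42.4% of the 1060 listed genes above 0 in both groups. The median size of the fold was 2.24 for 17 kinase members, 2.11 for 7 phosphatase members and 2.68 for those 1060 genes. Members were also often low: 9 of 30 had a mean value under 50, against 22.2% of all listed genes. CAMKV, EPHA3, MAPK4 and DUSP15 were at 0 in both shMIRE libraries. The count of held calls that follows includes them, though their fits without a shControl library carry no measure of replicate error. The call held in all 4 fits that each left out 1 library for 15 of 30 members, 9 of 22 on the kinase side and 6 of 8 on the phosphatase side, and for 58.6% of all listed genes. The part of the level gap between the sides in these counts was not tested.

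The 3′ untranslated regions (UTRs) of members that fell were searched for the heptamer GCTGTGT, because listed genes that fell carry it more often than those that rose. The heptamer had been picked from the values of these same libraries, so its presence here is a description and supports nothing. In the longest annotated 3′ UTR per gene (GENCODE 29, searched on the transcript strand), 9 of 19 members that fell (47.4%) and 4 of 11 that rose (36.4%) held it. Over all listed genes with a UTR these shares were 41.1% of 704 lower genes and 18.3% of 459 higher genes. By length the members that fell held 2.64 sites per 10 kb of UTR and those that rose 1.91, against 3.03 and 0.938 over all listed genes. Of the 10 sites in members that rose, 6 lay in the 24212-base UTR of RPS6KA5 and 2 in the 10219-base UTR of CDK6, and CAMK1G and PPP1R18 held 1 each. Among members that fell, PTP4A2, CAMK1, NEK11, MAPK15 and CDKN2A are examples without a match. The sites in the 9 members that fell are shown with their surroundings, from the transcript sequence, 5′ to 3′, with the heptamer in capitals.
RPS6KA2: gctgtggttttGCTGTGTtcacttcgattt
CDK15: actttggaacaGCTGTGTacagattatact
MAP3K1: aaattatatttGCTGTGTgactatgattcc
PRKCB: tttcttcttacGCTGTGTtaatgtgtttac
MAPK8IP2: gcacgccccgtGCTGTGTtcctgggccctg
PRKAR1B: gcccgggagccGCTGTGTgaggtgtgggcc
PPP2R5D: tgcggcttttgGCTGTGTacatagggtgct
PPP2R2C: gctgagcctctGCTGTGTaccaggcgtggt
PPP1R3D: gtcctggttagGCTGTGTgtctcctacatt
For comparison, the site nearest the stop codon in CDK6, which rose, begins 8078 bases into its UTR.
CDK6: caggcaacttaGCTGTGTacagaagcaatc
In GRCh38 coordinates, the RPS6KA2 window is chr6:166411841-166411870 (minus strand), the MAP3K1 window chr5:56895885-56895914 (plus strand), the PPP2R5D window chr6:43012221-43012250 (plus strand) and the CDK6 window chr7:92607044-92607073 (minus strand). The windows shown differed between genes, but some shared bases next to the heptamer, such as acaga after it in both CDK15 and CDK6. Each of the 9 genes that fell held 1 site.

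Among cell cycle genes, CDK6 rose and the gene of its inhibitor fell. CDK6 (ENSG00000105810, chromosome 7, 92604921 to 92836594), the cyclin D-dependent kinase of G1, stood at 9009 and 7259 in the shControl pair and at 17834 and 18595 in the shMIRE pair. Both shMIRE libraries were above both shControl libraries, and the group means of 8134 ± 1237 and 18214.5 ± 538 (SD, n = 2) differed 2.24-fold (log2 fold change 1.17, SE 0.12, limma adjusted p = 0.000551). CDKN2A (ENSG00000147889, chromosome 9, 21967753 to 21995301), which encodes the CDK4/6 inhibitor p16 and, from another reading frame, ARF, stood at 294 and 586 in the shControl pair and at 42 and 160 in the shMIRE pair. The groups did not overlap, but the libraries of a group differed 1.99-fold in shControl and 3.81-fold in shMIRE, the widest spread of any member with a mean value of at least 50. Its means of 440 ± 206 and 101 ± 83.4 (SD, n = 2) differed 4.36-fold (limma adjusted p = 0.0262). This call was lost on leaving out shControl 1 (adjusted p = 0.161), shControl 2 (0.287) or shMIRE 1 (0.165), and without the intensity trend (0.0638). CDK15, a little-characterised member of the CDK family, fell 2.79-fold, from 191 and 166 to 61 and 67 (limma adjusted p = 0.0035, but 0.0628 and 0.0527 without shControl replicate 1 or 2). NEK11, a kinase of the NIMA-related family linked to the DNA damage checkpoint, fell 2.08-fold, from 128 and 117 to 61 and 57, and lost its call without any 1 of the 4 libraries (limma adjusted p = 0.0135, range 0.0547 to 0.0987).

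Of 22 cyclins and CDK-binding proteins, 2 were listed, and these D-type cyclins, the partners of CDK6, went opposite ways. CCND1, cyclin D1, stood at 14131 and 15122 in the shControl pair and at 3650 and 3553 in the shMIRE pair, a 4.06-fold fall (limma adjusted p = 0.000103). CCND2, cyclin D2, rose 2.31-fold, from 554 and 482 to 1189 and 1208 (limma adjusted p = 0.00047). WEE1, the kinase that restrains CDK1 before mitosis, rose 2.67-fold, and CDC25A, a phosphatase that activates CDKs, fell 2.33-fold (from 543 and 653 to 219 and 294). The call of CDC25A was lost on leaving out shControl 1 or 2 (limma adjusted p = 0.0608 and 0.0842).

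The MAPK genes among the members that encode kinases all belonged to the atypical branch of the family, whose enzymes are not activated by the usual MAP2K step. MAPK6 (ENSG00000069956, chromosome 15, 51952106 to 52067372), which encodes ERK3, stood at 2951 and 2377 in the shControl pair and at 5111 and 5667 in the shMIRE pair. It rose 2.02-fold (log2 fold change 1.02, SE 0.13, limma adjusted p = 0.00119), and its adjusted p was 0.0523 without shMIRE replicate 2. GENCODE 29 names 6 MAPK6 pseudogenes, so how reads were divided among these copies is uncertain. MAPK15, which encodes an atypical ERK linked to cilia and autophagy, fell 2.12-fold, from 162 and 211 to 104 and 72, and its call was lost without any 1 of the 4 libraries (limma adjusted p = 0.019, range 0.0593 to 0.188). MAPK4, which encodes ERK4, the closest relative of ERK3, stood at 7 and 12 in the shControl pair and at 0 in the shMIRE pair. Of these, MAPK6 stood highest per length of exon, at 417 per kb in shControl against 61.0 for MAPK15 and 1.25 for MAPK4.

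In the JNK and ERK cascades MAP3K1 and MAPK8IP2 fell, the latter with a call that depended on single libraries, and DUSP10 rose. MAP3K1 (ENSG00000095015, chromosome 5, 56815574 to 56896152), which encodes MEKK1, an activator of the JNK and ERK cascades, stood at 2992 and 2606 in the shControl pair and at 1389 and 1382 in the shMIRE pair. Its means of 2799 ± 273 and 1385.5 ± 4.95 (SD, n = 2) differed 2.02-fold (log2 fold change -1.01, SE 0.10, limma adjusted p = 0.000463), and the call held without each library in turn. MAPK8IP2, which encodes the JNK scaffold JIP2, fell 3.12-fold, from 225 and 303 to 62 and 107. Its limma adjusted p of 0.00783 became 0.0944, 0.139 and 0.0659 on leaving out shControl 1, shControl 2 or shMIRE 1. DUSP10 (ENSG00000143507, chromosome 1, 221701424 to 221742176), a phosphatase that inactivates JNK and p38 kinases, stood at 2122 and 2057 in the shControl pair and at 4243 and 4168 in the shMIRE pair. Libraries of a group lay within 1.03-fold of each other, and the 2.01-fold rise (log2 fold change 1.01, SE 0.07, limma adjusted p = 0.000177) was the smallest fold of any member.

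The kinases that MAPKs activate went in both directions. RPS6KA5 (ENSG00000100784, chromosome 14, 90847862 to 91060636), which encodes MSK1, a kinase of histone H3 and CREB that ERK and p38 activate, stood at 515 and 416 in the shControl pair and at 1275 and 1365 in the shMIRE pair. It rose 2.84-fold (log2 fold change 1.51, SE 0.14, limma adjusted p = 0.000457), the largest rise among members with a mean value of at least 50. RPS6KA2 (ENSG00000071242, chromosome 6, 166409364 to 166906451), which encodes RSK3, a kinase that ERK activates, stood at 367 and 442 in the shControl pair and at 127 and 141 in the shMIRE pair. It fell 3.02-fold (log2 fold change -1.58, SE 0.19, limma adjusted p = 0.00112), and both calls held without each library in turn. RPS6KA2 holds 1 copy of the heptamer in a longest annotated UTR of 3398 bases, and RPS6KA5 holds 6 in one of 24212 bases.

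Of 23 genes of RAS-ERK adaptors and feedback, 3 were listed and 3 rose, where 38.5% of all listed genes rose. With 3 listed genes this count is a description and was not tested. SPRY4 and SPRY2, feedback inhibitors of receptor signalling to ERK, rose 3.76-fold (from 65 and 69 to 253 and 251) and 2.07-fold (from 1140 and 1220 to 2515 and 2377). KSR1, a scaffold of the RAF-MEK-ERK cascade, rose 2.08-fold, from 951 and 910 to 1941 and 1935. The limma adjusted p was between 0.000254 and 0.000887 for these genes, and the calls held without each library in turn.

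**Figure D2:**
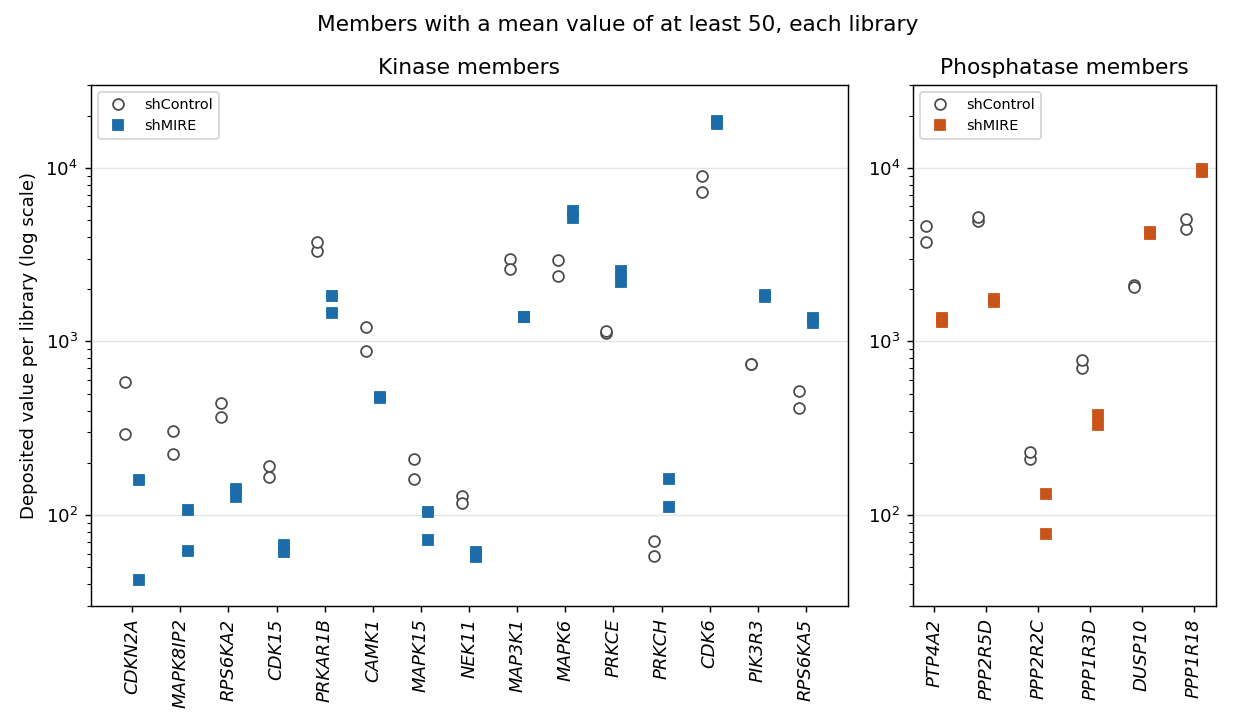
Deposited value on a log axis in each of the 4 libraries for the 21 members with a mean value of at least 50, shControl as open circles and shMIRE as filled squares. The groups are apart for each member shown, and the libraries of a group lie farthest from each other for CDKN2A (294 and 586, then 42 and 160).

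Kinases controlled by lipid, calcium and cyclic AMP signals were split. PRKCE (ENSG00000171132, chromosome 2, 45651345 to 46187990), a calcium-independent protein kinase C (PKC), stood at 1118 and 1155 in the shControl pair and at 2195 and 2530 in the shMIRE pair, a 2.08-fold rise (log2 fold change 1.05, SE 0.10, limma adjusted p = 0.000471). PRKCH, another PKC of the calcium-independent class, stood at 71 and 58 in the shControl pair and at 161 and 111 in the shMIRE pair (2.11-fold, limma adjusted p = 0.0244), and its call was lost without any 1 library (range 0.0547 to 0.188). PRKCB, a calcium-dependent PKC, stood at 5 and 18 in the shControl pair and at 0 in the shMIRE pair. The PKC genes that rose were of the calcium-independent class and the one that fell of the calcium-dependent class, with PRKCB at the low end of the tables. Of these calls only that of PRKCE held without each library in turn, and a split by class was not tested.

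CAMK1, a kinase activated by calcium and calmodulin, stood at 881 and 1204 in the shControl pair and at 474 and 479 in the shMIRE pair, a 2.19-fold fall (limma adjusted p = 0.00274, but 0.0724 and 0.0693 without shMIRE replicate 1 or 2). Of its exon bases, 80.1% also belong to exons of the DNA repair gene OGG1 on the opposite strand. Whether counting used strand is not given in the sources used here, so reads of these genes cannot be told apart. CAMK1G, of the same kinase subfamily, stood at 0 in the shControl pair and at 8 and 22 in the shMIRE pair (limma adjusted p = 0.00236, but 0.0645 and 0.0652 without shControl replicate 1 or 2). CAMKV, a CaM kinase-like protein without kinase activity, stood at 21 and 28 in the shControl pair and at 0 in the shMIRE pair.

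PRKAR1B (ENSG00000188191, chromosome 7, 549197 to 727650), a regulatory subunit that holds protein kinase A inactive until cyclic AMP binds, stood at 3323 and 3744 in the shControl pair and at 1819 and 1451 in the shMIRE pair. It fell 2.16-fold (log2 fold change -1.12, SE 0.14, limma adjusted p = 0.0011), and its adjusted p was 0.0571 without shControl replicate 2. The catalytic subunits of protein kinase A and the 12 A-kinase anchors of the list had 0 listed genes.

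The listed subunits of phosphoinositide 3-kinase rose. PIK3R3 (ENSG00000117461, chromosome 1, 46040140 to 46133036), which encodes the p55 gamma regulatory subunit of the class IA enzymes, stood at 740 and 746 in the shControl pair and at 1802 and 1845 in the shMIRE pair. Its libraries agreed within 1.02-fold in each group, and the 2.45-fold rise (log2 fold change 1.29, SE 0.08) had the smallest limma adjusted p on the kinase side, 0.000166. PIK3R6, a regulatory subunit of the class IB enzyme, stood at 6 and 11 in the shControl pair and at 62 and 25 in the shMIRE pair (5.12-fold, limma adjusted p = 0.0194). Its adjusted p was 0.180, 0.110 and 0.103 on leaving out shControl 1, shControl 2 or shMIRE 1. In PIK3R3, 17.4% of exon bases are shared with an overlapping gene on the same strand, AL358075.4.

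Receptor kinases of the EPH family, which bind ephrins on neighbouring cells, were near the bottom of the tables. EPHA3 stood at 14 and 17 in the shControl pair and at 0 in the shMIRE pair, and EPHA5 rose from 18 and 5 to 63 and 57 (5.22-fold, limma adjusted p = 0.0142, but 0.149 and 0.134 without shMIRE replicate 1 or 2). Of 8 ephrin ligand genes, EFNB3 was listed and fell 2.49-fold, from 117 and 130 to 42 and 57 (limma adjusted p = 0.0103). Its call was lost on leaving out shControl 1 (0.0913), shControl 2 (0.110) or shMIRE 1 (0.0552). Of 35 other receptor tyrosine kinases, 7 were listed, 4 rose and 3 fell. Among all listed genes 38.5% rose and 59.0% fell, and the small counts of these lists were not tested. ROR1, a receptor for WNT5A, rose 3.21-fold, from 3998 and 3689 to 12486 and 12192, and FGFR3, a fibroblast growth factor receptor, fell 2.91-fold, from 1935 and 2239 to 701 and 732. AXL, the receptor for GAS6, rose 2.40-fold. Of 85 other cytoplasmic and nuclear kinases, 2 were listed and 2 rose, WEE1 and MYLK, the myosin light chain kinase (2.32-fold, from 9427 and 9948 to 22890 and 21972).

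On the phosphatase side the listed regulatory subunits of PP2A, PPP2R5D and PPP2R2C, fell, where 59.0% of all listed genes fell. The call of PPP2R2C depended on single libraries. PPP2R5D (ENSG00000112640, chromosome 6, 42984499 to 43012342), a B56-class subunit of PP2A, stood at 4925 and 5209 in the shControl pair and at 1747 and 1689 in the shMIRE pair. Its means of 5067 ± 201 and 1718 ± 41.0 (SD, n = 2) differed 2.95-fold (log2 fold change -1.56, SE 0.07), with the smallest limma adjusted p of any member, 0.000106. Of its exon bases, 1194 overlap exons of MEA1 on the opposite strand, and reads from that stretch cannot be told apart without strand. PPP2R2C, a B55-class subunit, stood at 211 and 232 in the shControl pair and at 132 and 78 in the shMIRE pair (2.11-fold, limma adjusted p = 0.0207). Its adjusted p was 0.170, 0.206 and 0.0703 on leaving out shControl 1, shControl 2 or shMIRE 2. Both genes hold 1 copy of the heptamer. Of 14 PP2A inhibitors and partners, 0 were listed.

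The subunits of PP1 went both ways. PPP1R18 (ENSG00000146112, chromosome 6, 30676389 to 30687895), phostensin, which brings PP1 to actin filaments, stood at 4467 and 5089 in the shControl pair and at 9900 and 9474 in the shMIRE pair. It rose 2.03-fold (log2 fold change 1.02, SE 0.09, limma adjusted p = 0.000339). Its longest annotated UTR has 880 bases and holds 1 copy of the heptamer. PPP1R3D, which brings PP1 to glycogen, stood at 700 and 778 in the shControl pair and at 331 and 376 in the shMIRE pair, a 2.09-fold fall (limma adjusted p = 0.00137). Both calls held without each library in turn. PPP1R14A, which encodes CPI-17, an inhibitor of the PP1 form that acts on myosin, stood at 11 and 20 in the shControl pair and at 3 and 0 in the shMIRE pair.

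Among catalytic phosphatases PTP4A2 fell further than DUSP10 rose. PTP4A2 (ENSG00000184007, chromosome 1, 31906421 to 31944856), which encodes the prenylated tyrosine phosphatase PRL-2, stood at 4619 and 3731 in the shControl pair and at 1289 and 1368 in the shMIRE pair. Both shMIRE libraries were below both shControl libraries, and the means of 4175 ± 628 and 1328.5 ± 55.9 (SD, n = 2) differed 3.14-fold (log2 fold change -1.64, SE 0.12, limma adjusted p = 0.000247). GENCODE 29 names 2 PTP4A2 pseudogenes, so the division of reads among the copies is uncertain. DUSP15, a small dual-specificity phosphatase, stood at 6 and 9 in the shControl pair and at 0 in the shMIRE pair. Of 41 other phosphatases, 3 were listed: CDC25A and EYA1 fell, and EYA2, a relative of EYA1 (0 and 26 in shControl, 0 and 0 in shMIRE) did not pass (limma adjusted p = 0.197). EYA1, a transcription cofactor with phosphatase activity, stood at 5 and 15 in the shControl pair and at 0 in the shMIRE pair, and lost its call on leaving out shMIRE 1 (0.0743) or shMIRE 2 (0.0722).

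The largest log2 changes came from members near 0, for which no fold is given. In shMIRE both libraries were at 0 for 5 members (16.7%), CAMKV, EPHA3, PRKCB, MAPK4 and DUSP15, and for 7.14% of all listed genes. Limma passed these 5, with adjusted p from 0.000373 for CAMKV to 0.00566 for PRKCB. With quantile normalisation MAPK4 (0.143), PRKCB (0.192) and DUSP15 (0.420) lost their calls, and PRKCB also did so without shMIRE replicate 1 (0.0894) or 2 (0.0870). PPP1R14A (limma adjusted p = 0.0164) lost its call with quantile normalisation (0.143), a pseudocount of 0.1 (0.0524), and on leaving out shControl 1 (0.131), shControl 2 (0.194) or shMIRE 2 (0.0689). Where a shControl library was left out, the spread of a gene at 0 in shMIRE came from libraries with identical values, so calls kept there carry no measure of replicate error.

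Summed over members, kinase values were higher in both shMIRE libraries, mostly through CDK6. The phosphatase sums lay close together in all libraries, although single phosphatase members changed. Kinase members summed to 23038 and 21481 in shControl and to 32650 and 34133 in shMIRE. CDK6 made up 39.1% and 33.8% of these sums in shControl and 54.6% and 54.5% in shMIRE. Without CDK6 the kinase sums were 14029 and 14222 in shControl and 14816 and 15538 in shMIRE. Phosphatase members summed to 17061 and 17125 in shControl and to 17645 and 17153 in shMIRE. Their group means thus differed by less than the shMIRE libraries did from each other. This level sum joins opposite changes, with PPP1R18 and DUSP10 higher and PPP2R5D and PTP4A2 lower in shMIRE. As a share of all listed values, phosphatase members made up 0.689% and 0.681% in shControl and 0.864% and 0.856% in shMIRE. Which reading holds depends on the scaling, which is not given. The sums weight a gene by its level and its length, whereas the medians above count each gene once. The kinase median and the change in the kinase sum therefore differ in sign.

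**Figure D3:**
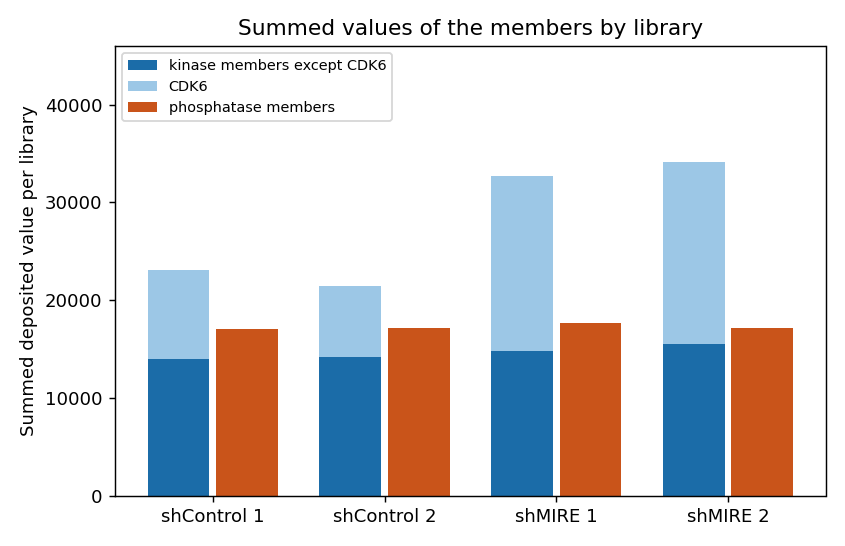
Summed deposited values per library of the 22 kinase members, split into CDK6 (light blue) and the others (dark blue), and of the 8 phosphatase members (orange). Kinase sums are 23038 and 21481 in shControl and 32650 and 34133 in shMIRE, a gap mostly made by CDK6, while phosphatase sums lie between 17061 and 17645.

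Set per length of exon, the order of the members changed between the groups. In shControl the highest mean values per kb were those of PPP2R5D (1529), PPP1R18 (1039), PRKAR1B (787), DUSP10 (717), CDK6 (663) and PTP4A2 (621). In shMIRE the highest were PPP1R18 (2106), CDK6 (1486), DUSP10 (1443), MAPK6 (844) and PPP2R5D (518). In each group CDK6 and DUSP10 differed per kb by less than the SD of CDK6. Lengths are of all annotated exons merged (28.0 kb for RPS6KA5), and which isoforms the cells express was not tested, so these levels hold for the merged length only.

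**Figure D4:**
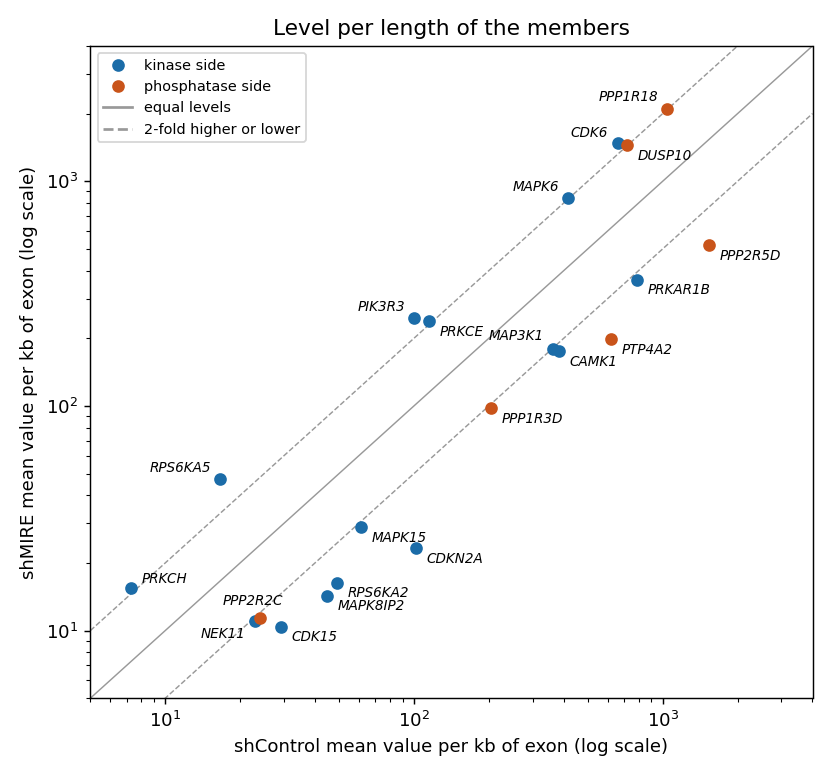
Mean deposited value per kb of merged exon in shControl (x axis) and shMIRE (y axis), both on log axes, for the 21 members with a mean value of at least 50. Points above the solid line of equal levels were higher in shMIRE, and many lie near the dashed lines of a 2-fold difference, where the tables end.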

How the data were processed

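RNA of 4 RCC4 libraries was sequenced, and the values the authors deposited are whole-number scores per gene, read counts that look already scaled between libraries and rounded. Per the submitters' processing notes, the tools were DESeq2 1.20.0, featureCounts 1.5.0-p3 and HISAT2 2.0.5 on build hg38, with no roles stated. How values were scaled and genes were picked for listing is not given in the sources used here, so the scores were not treated as raw counts. Symbols were found for 1175 of 1176 gene IDs, and coordinates come from GENCODE 29 (GRCh38). Groups were compared on log2(value + 1) with limma 3.58.1 (R 4.3.3, intensity trend, no covariates, no filter), fitted across all 1176 genes with Benjamini-Hochberg adjustment and a threshold of 0.05, two-sided. The fit was also run on simulated data in which most genes did not change. The listed genes were picked for a difference, so that run cannot check the p-values given here. A fold is the ratio of mean values per group, and a standard error is that of the log2 fold change, which is understated for low genes.

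The genes were listed for their difference, so p-values are not independent evidence. The labels do not say whether replicate libraries stem from separate infections, so the spread behind p-values may be technical. Members, gene lists, the heptamer and the rule for naming were chosen with earlier results of these data known. All members are named. The log2 fold change with its SE is given in the text for up to 6 per role with a mean value of at least 50. The rule for naming asked for the largest changes per role, and the text departed from it. CDK15 (log2 fold change -1.46), CAMK1 (-1.11) and MAPK15 (-1.09) changed more than PRKCE (1.05), MAPK6 (1.02) and MAP3K1 (-1.01). The SE was also left out for CDKN2A (-2.32), MAPK8IP2 (-1.67), PPP2R2C (-1.12) and PPP1R3D (-1.06). Of the members passed over here, only PPP1R3D kept its call without each library in turn. Of the other lists, up to 3 genes with the smallest p are named. Per-length values use merged exons. Alternatives were quantile normalisation, equal sums of listed values, no intensity trend, a mean above 5, a pseudocount of 0.1, a replicate block, 1 library fewer, a threshold of 0.01, and membership without CDKN2A.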

Additional observations from a re-analysis of the deposited data

How the results depend on the processing

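Under every alternative run, 0 of the members tested changed sign. A mean above 5 left out MAPK4 and DUSP15, and the other fits tested 30 members. Over all listed genes, 1 changed sign without shControl replicate 1 and 0 did so in any other fit. Genes listed for a difference of at least about 2-fold could hardly change sign, so the kept signs say little about the members. Members past the threshold (30) numbered 26 with quantile normalisation, 30 with equal sums of the listed values, 29 without the intensity trend, 28 of the 28 tested with a mean above 5, 29 with a pseudocount of 0.1 and 22 at an adjusted p under 0.01. Leaving out 1 library (its remaining partner is then taken to vary as the complete group does), 19 to 21 members passed (8 higher in each fit, 11 to 13 lower), among them 13 to 15 on the kinase side and 6 to 8 on the phosphatase side. Members past the threshold fell to 19 without shControl replicate 2. Quantile normalisation and equal sums shifted the median of all listed genes by 0.32 and 0.30 on the log2 scale, and the kinase median became -0.79 and -0.76 and the phosphatase median -0.93 and -1.04. The phosphatase median was -1.12 with a mean above 5, which leaves out DUSP15, and -1.28 to -1.54 with 1 library left out, and the kinase median then ranged from -0.96 to -1.10. With the replicate number as a block, 30 members and 1175 of all genes passed, but same-numbered libraries showed almost no shared deviation (correlation over genes 0.0321) and were not treated as pairs. Depth limits are unknown without library totals.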
